A study of Mus musculus with 2 samples.

Results

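The mitochondrial ribosomal proteins were compared between eosinophils and dendritic cells of the mouse gut. The members are the genes whose symbol starts with Mrpl (large subunit) or Mrps (mostly small subunit) followed by a digit. Mrps18a and Mrps30 are counted with the large subunit despite their symbols, and Mrps36 with neither. The genes were taken from probe sets that the platform annotation gives to 1 gene, with the symbol updated. The rule found 74 genes among the 12393 genes on the array, represented by 127 probe sets. It uses symbols and no signal values. Genes with more than 1 probe set were represented by the probe set of highest mean log2 signal over both arrays. RefSeq lists 78 protein-coding genes with such symbols, and the 4 that had no probe set of their own were Mrpl30, Mrpl53, Mrps10 and Mrps27. The 74 genes lie on 17 chromosomes, with at most 11 on any of them.

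The 2 arrays held RNA of unstimulated cells, sorted from lamina propria of the small intestine of C57BL/6 mice aged 8 weeks. One array held eosinophils (CD11b+, intermediate CD11c, MHCII-, SiglecF+) and the other dendritic cells (CD11c+MHCII+), and the strain, age, tissue and lack of stimulation were shared. The dendritic cell gate asks for no marker beyond CD11c and MHCII, and the sources used here do not give the number of animals per sort. With 1 array per population there was no replicate error, so no test was made and every difference describes these arrays. The precision is limited by the number of arrays. In RNA of whole sorted populations, fewer cells of a type and less RNA per cell cannot be told apart.

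Values are linear signal intensities in arbitrary units. Signals below a floor of 134.7 units, the pooled median of the signals on the arrays, were raised to it before log2 was taken. Ratios in which 1 value lay under the floor are therefore lower bounds ("at least"), and a gene under the floor on both arrays was not measured. A positive log2 difference means brighter in eosinophils. Genes were counted as apart at 2-fold or more. The spread that could be computed was between probe sets for 1 gene that were above the floor on both arrays. Probe sets under the floor on 1 array were left out, so it may understate the disagreement among all measured ones. The pooled SD was 0.73 log2 units (1.65-fold) for 1766 genes with 4402 probe sets. Among the mitoribosomal genes it was 0.79 (1.73-fold, 18 genes with 42 probe sets), so a 2-fold difference lies not far outside it. No result compares the level of a gene with that of another, because brightness depends on the probes.

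Mitochondrial ribosomes translate the few messenger RNAs encoded by mitochondrial DNA, all of which specify subunits of the respiratory chain and ATP synthase. Their RNA comes from mitochondrial DNA, whereas all their proteins are encoded in the nucleus, made in the cytosol and imported. Many of these proteins have a counterpart in the bacterial ribosome, and the others were added during the evolution of mitochondria. Eosinophils are granulocytes that no longer divide once mature, and dendritic cells are antigen-presenting cells.

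The sequences upstream of 5 members are shown because the divergent gene pair, or the motif matches described further on, lie in them. They are the bases before the RefSeq start site on build GRCm38.p6, read 5′ to 3′ on the gene's strand, and they end at the base before the start. Capitals mark a match to the NRF1 motif (GCGC, any base, then TGCGC), the ETS motif (CCGGAAG) or the YY1 motif (AAGATGG), on either strand. The Mrps11 stretch, chr7:78783090-78783130 on the plus strand, is the 41 bases between the start sites of Mrps11 and Mrpl46, which are transcribed away from each other.
Mrps11: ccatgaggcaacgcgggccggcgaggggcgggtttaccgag
The Mrpl32 stretch, chr13:14613038-14613241 on the minus strand, covers the 204 bases between the starts of Mrpl32 and the proteasome gene Psma2.
Mrpl32: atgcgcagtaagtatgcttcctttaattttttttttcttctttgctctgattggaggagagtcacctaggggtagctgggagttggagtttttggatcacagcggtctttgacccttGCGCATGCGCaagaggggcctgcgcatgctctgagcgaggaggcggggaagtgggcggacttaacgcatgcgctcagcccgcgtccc
The remaining 3 stretches are the 250 bases before the starts of Mrps21 (chr3:95871515-95871764, minus strand), Mrpl17 (chr7:105811088-105811337, minus strand) and Mrpl52 (chr14:54426659-54426908, plus strand).
Mrps21: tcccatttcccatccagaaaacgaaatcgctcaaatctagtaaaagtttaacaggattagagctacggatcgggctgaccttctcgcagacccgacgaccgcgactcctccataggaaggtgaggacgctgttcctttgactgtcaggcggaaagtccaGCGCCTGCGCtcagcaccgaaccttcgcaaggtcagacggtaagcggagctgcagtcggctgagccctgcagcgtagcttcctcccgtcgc
Mrpl17: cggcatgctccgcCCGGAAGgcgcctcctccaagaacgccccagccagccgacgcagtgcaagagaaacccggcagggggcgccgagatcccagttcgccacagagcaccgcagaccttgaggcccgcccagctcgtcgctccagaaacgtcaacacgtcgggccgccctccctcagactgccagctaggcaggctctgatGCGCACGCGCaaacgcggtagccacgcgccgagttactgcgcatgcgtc
Mrpl52: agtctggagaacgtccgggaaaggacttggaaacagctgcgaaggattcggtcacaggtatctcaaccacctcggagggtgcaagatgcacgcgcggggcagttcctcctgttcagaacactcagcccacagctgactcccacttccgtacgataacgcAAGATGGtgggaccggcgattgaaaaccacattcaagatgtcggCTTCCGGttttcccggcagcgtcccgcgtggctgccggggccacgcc

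Nearly all mitoribosomal genes were detected in both populations, and they differed in both directions, by at most 5.55-fold where both values were above the floor. Of the 74 genes, 67 were above the floor on both arrays, against 43.5% of all genes. Mrps11 and Mrpl21 were above it in eosinophils alone, and Mrps34, Mrpl16 and Mrpl55 in dendritic cells alone. Mrpl27 (133 units in eosinophils against 87.6 units in dendritic cells) and Mrpl45 (76.7 and 90.7 units) were not measured. The 72 measured members are set against the 7994 genes above the floor on at least 1 array, which are 64.5% of all genes.

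The median log2 difference of the 72 members was -0.19, with quartiles of -1.01 and 0.50, whereas the median of all 7994 measured genes was 0.16. With the unmeasured members counted at 0, the median over all 74 was -0.16. The median signal of the 72 members was 439 units in eosinophils against 545 units in dendritic cells. By any amount, 31 members were brighter in eosinophils (57.4% of all measured genes were) and 41 in dendritic cells (42.6% of all measured genes). Among the 67 members above the floor on both arrays these counts were 29 and 38, against 54.9% and 45.1% of all such genes.

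At 2-fold or more, 11 members (15.3%) were brighter in eosinophils, against 18 (25%) in dendritic cells, and 43 were less than 2-fold apart. Over all measured genes the shares were 19.0% and 15.5%. Among the 67 members above the floor on both arrays the counts were 9 (13.4%) and 16 (23.9%), against 20.3% and 16.8% of all such genes. At 4-fold or more, no member was brighter in eosinophils and 3 were in dendritic cells (Mrpl42, Mrpl52 and Mrps7), while over all measured genes 5.35% were 4-fold apart in each direction. The counts rest on the scaling between the arrays. They became 7 and 28 when each array was centred on its median, 8 and 22 under loess, and 0 and 41 when the arrays were centred on the hybridisation spike controls. The members' median lay below that of all genes under all 10 alternative settings tried.

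**Figure D1:**
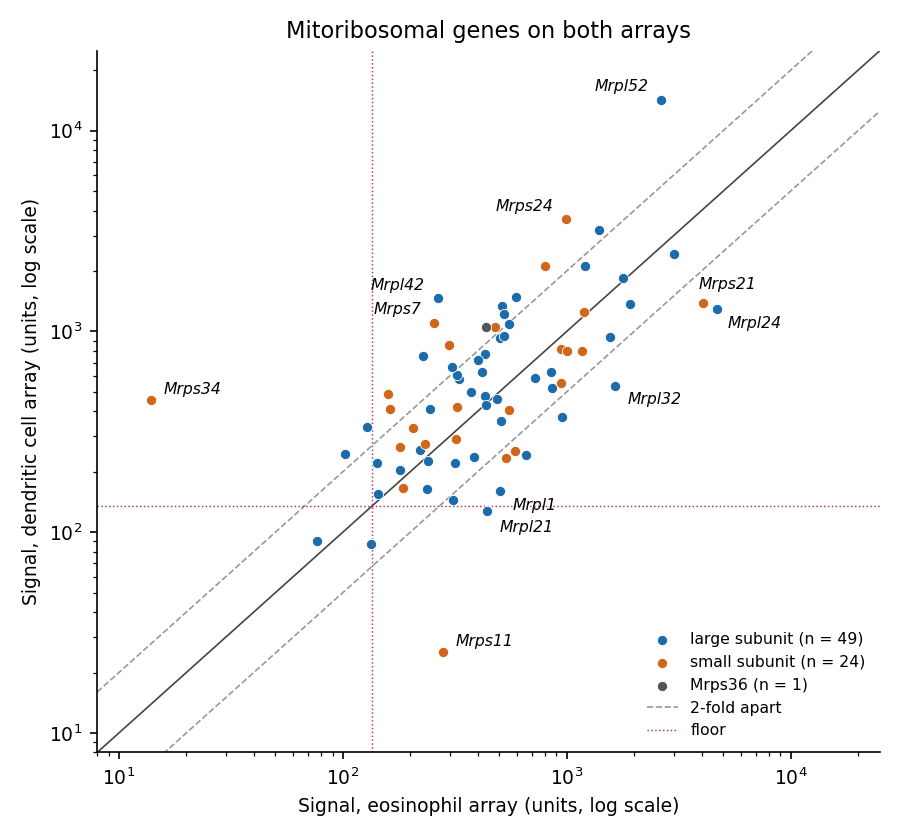
Signal of each of the 74 mitoribosomal genes (arbitrary units, log axes), with eosinophils and dendritic cells on the 2 axes. Points are genes coloured by subunit, including Mrpl27 and Mrpl45, which are under the floor on both arrays. Lines mark equal signal (solid), 2-fold (dashed) and the floor (dotted). Of the 72 measured genes, 31 lie on the eosinophil side of the line of equal signal and 41 on the dendritic cell side, and most fall within 2-fold.

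The large subunit joins amino acids at the peptidyl transferase centre and guides the new chain out through its exit tunnel. Of its 49 members 47 were measured, at a median log2 difference of -0.18. At 2-fold or more, 7 (14.9%) were brighter in eosinophils against 9 (19.1%) in dendritic cells. The 28 measured members with a bacterial counterpart had a median of -0.32 and counts of 7 and 5. The 19 without a counterpart had a median of -0.15 and counts of 0 and 4. As shares these are 25% and 17.9% with a counterpart, and 0% and 21.1% without, against 19.0% and 15.5% of all measured genes. The difference between the classes was not tested.

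Among those 7, Mrpl24, whose bacterial counterpart sits at the rim of the exit tunnel, had 4675 units in eosinophils against 1292 units in dendritic cells (3.62-fold). Mrpl21, a conserved protein of the subunit's body, had 441 and 128 units, the value in dendritic cells being under the floor (at least 3.28-fold). Mrpl1, the counterpart of the protein at the tip of the mobile L1 stalk near the exit site for transfer RNA, had 501 and 160 units (3.12-fold). Its dendritic cell value is close to the floor. Mrpl24, Mrpl21 and Mrpl1 have the largest eosinophil-side differences of the large subunit, each more than 3-fold.

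Mrpl32 is known for being trimmed by the m-AAA protease of the inner membrane before it joins the ribosome. Its signal was 1637 units in eosinophils against 537 units in dendritic cells (3.05-fold). Mrpl20, whose bacterial counterpart is an early assembly protein, had 657 and 243 units (2.70-fold). Mrpl18, the counterpart of a protein of the central protuberance, had 957 and 373 units (2.57-fold). Mrpl14, at the interface between the subunits, had 309 and 145 units (2.13-fold), and its dendritic cell value is close to the floor.

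The 2 large subunit members furthest toward dendritic cells have no bacterial counterpart. Mrpl42 had 265 units in eosinophils against 1470 units in dendritic cells (5.55-fold). Mrpl52 had 2642 and 14290 units (5.41-fold). Both proteins belong to the mitochondria-specific part of the particle. Mrpl48, another mitochondria-specific protein, had 593 units in eosinophils against 1481 units in dendritic cells (2.50-fold). Mrpl46, likewise mitochondria-specific, had 307 and 662 units (2.16-fold).

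The conserved members on the dendritic cell side include parts of the core and the stalk. Mrpl4, whose bacterial counterpart lines the exit tunnel, had 227 units in eosinophils against 752 units in dendritic cells (3.31-fold). Mrpl3, the counterpart of a protein that reaches toward the peptidyl transferase centre, had 526 and 1223 units (2.32-fold). Mrpl16, the counterpart of a protein near the site where transfer RNA is accommodated, had 128 units in eosinophils, under the floor, and 335 units in dendritic cells (at least 2.49-fold).

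The stalk recruits the translation factors that drive elongation. Mrpl12, the stalk protein itself and in human cells also a partner of the mitochondrial RNA polymerase, had 515 units in eosinophils against 1342 units in dendritic cells (2.60-fold). Mrpl11, at the stalk base, had 1394 and 3218 units (2.31-fold). Mrpl10, which anchors Mrpl12, and Mrpl54, placed at the stalk base in the list used, differed by less than 2-fold, with log2 differences of 0.53 and 0.08. Stalk proteins therefore lay on both sides, with a median of -0.56 over the 4 measured. The 5 measured proteins of the exit tunnel rim had a median of 0.43, and Mrpl24 was the one at least 2-fold apart.

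Other large subunit members were less than 2-fold apart, some of them close to equal. Mrpl58, which releases stalled chains as a peptidyl-tRNA hydrolase, had 436 units in eosinophils against 430 units in dendritic cells. Mrps30, a large subunit protein despite its symbol, had 1787 and 1848 units. Mrpl41 had 3004 and 2440 units, a log2 difference of 0.30. Mrpl51 and Mrpl43 differed by 0.47 and -0.80, with 1908 and 1376 units for Mrpl51 and 1213 and 2109 units for Mrpl43.

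The small subunit binds messenger RNA and reads the codons. All 24 members were measured, 22 of them above the floor on both arrays, and their median log2 difference was -0.15. The 2-fold mark was passed by 4 members (16.7%) in eosinophils against 8 (33.3%) in dendritic cells, and 12 were less far apart. The 15 members with a bacterial counterpart had a median of -0.24 and counts of 2 and 4. The 9 without had a median of 0.14 and counts of 2 and 4. As shares these are 13.3% and 26.7% with a counterpart, and 22.2% and 44.4% without, against 19.0% and 15.5% of all measured genes.

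On the dendritic cell side, Mrps7, the counterpart of the protein that organises the head of the small subunit, had 255 units in eosinophils against 1106 units in dendritic cells (4.33-fold). Mrps24, related to the bacterial protein at the entry of the messenger RNA channel, had 992 and 3617 units (3.65-fold). Mrps15, the counterpart of an early binder of the small subunit RNA, had 803 and 2123 units (2.64-fold). Mrps14, a head protein, had 477 and 1047 units (2.19-fold). These 4 are conserved members.

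The other 4 are mitochondria-specific. Mrps34 had 13.9 units in eosinophils, under the floor, and 453 units in dendritic cells (at least 3.36-fold), and defects of its human form lower the small subunit. Mrps25 had 159 and 489 units (3.07-fold). Mrps18b, the mitochondria-specific relative of the conserved Mrps18c, had 298 and 856 units (2.87-fold), whereas Mrps18c itself had 1200 units in eosinophils against 1255 units in dendritic cells. Mrps35 had 163 and 409 units (2.51-fold), so the eosinophil values of Mrps25 and Mrps35 lay close to the floor.

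On the eosinophil side, Mrps21, a small protein with a bacterial counterpart, had 4042 units in eosinophils against 1379 units in dendritic cells (2.93-fold). Mrps22, whose human form is known from a mitochondrial disease with low small subunit levels, had 586 and 254 units (2.31-fold). Mrps31, mitochondria-specific like Mrps22, had 533 and 235 units (2.27-fold). Mrps11, a conserved protein of the platform, had 281 units in eosinophils against 25.4 units in dendritic cells, which are under the floor (at least 2.09-fold).

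Mrps36 is set apart from the subunits because its product is now regarded as a component of the 2-oxoglutarate dehydrogenase complex of the citric acid cycle. It had 437 units in eosinophils against 1054 units in dendritic cells (2.42-fold) and is counted among the 18.

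The 2-fold mark divides members of nearly equal difference on 1 side of the comparison. On the dendritic cell side Mrpl46 was the member just inside it, and Mrpl39 (555 units in eosinophils against 1093 units in dendritic cells, 1.97-fold), Mrpl34 (325 and 610 units, 1.88-fold) and Mrpl17 (506 and 924 units, 1.83-fold) were just outside. Mrpl55, with 103 and 245 units, was apart by at least 1.82-fold, a bound that may understate it. On the eosinophil side a gap followed Mrps11 and Mrpl14, the next members being Mrps9 (946 and 553 units, 1.71-fold) and Mrpl33 (1565 and 939 units, 1.67-fold).

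**Figure D2:**
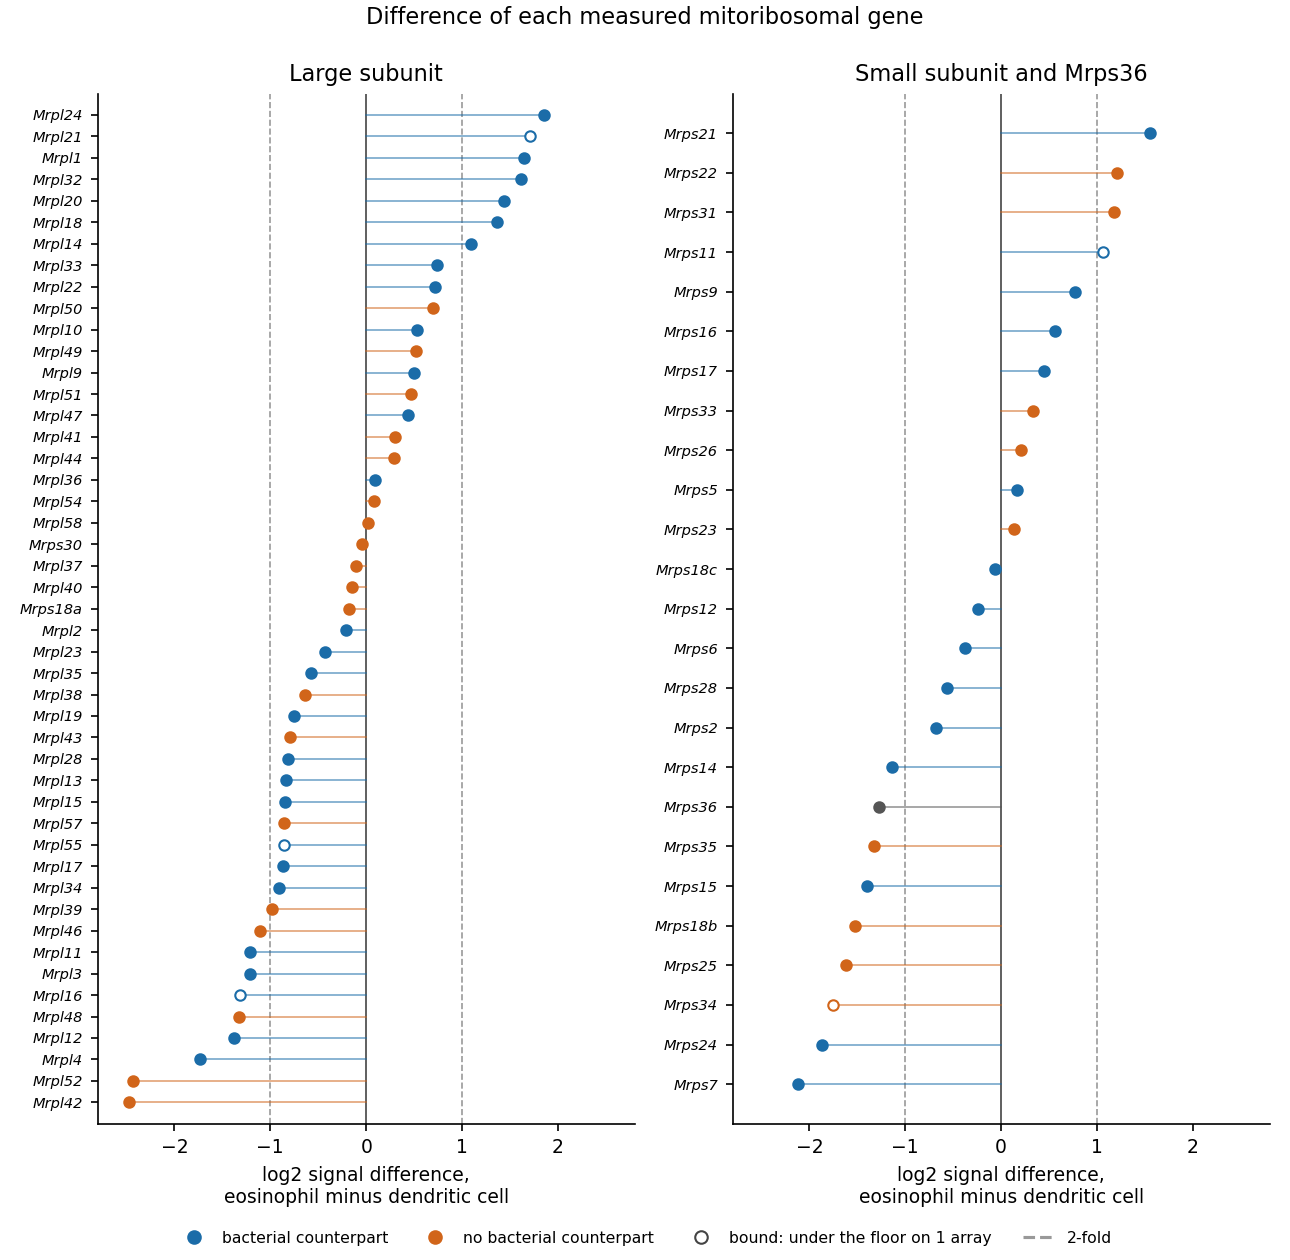
Log2 difference (eosinophil minus dendritic cell) of every measured mitoribosomal gene, with the large subunit on the left and the small subunit with Mrps36 on the right, ordered by size; blue points have a bacterial counterpart, orange ones have none, open ones are bounds, and dashed lines mark 2-fold. The values lie between -2.47 (Mrpl42) and 1.86 (Mrpl24), and the small subunit members between -2.12 (Mrps7) and 1.55 (Mrps21).

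Different probe sets of the same member often disagreed. Of the 24 members with at least 2 measured probe sets, 12 had all of them on the same side and 12 had them on both sides, and in 14 they spanned over 1 log2 unit. Of the 9 such members counted as 2-fold apart, 4 had all probe sets on the same side and 5 did not (Mrpl1, Mrpl3, Mrpl52, Mrps14 and Mrps25). None of the 9 was 2-fold apart in every probe set.

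The 4 probe sets of Mrpl52 gave log2 differences of -2.84, -2.54, -2.44 and 0.82, so 3 of them placed it far on the dendritic cell side. Mrpl11 ranged over its measured probe sets between -2.35 and -0.17, always on the dendritic cell side. Mrps24 ranged between -1.87 and -0.083, Mrps15 between -1.40 and -0.82 and Mrpl48 between -1.32 and -0.47, also on that side throughout.

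The direction of other members turned with the probe set. Mrpl1 had values between -0.12 and 1.64, Mrpl3 between -1.22 and 0.23, Mrps14 between -1.13 and 0.44 and Mrps25 between -1.62 and 0.45. The upper values of Mrpl3, Mrps14 and Mrps25 are bounds, from probe sets under the floor in dendritic cells. In eosinophils those probe sets had 158, 183 and 185 units. Among members counted as less than 2-fold apart, Mrpl57 spanned -0.85 to 1.47, Mrpl49 -1.70 to 0.52, Mrpl15 -0.85 to 0.92, Mrpl28 -0.82 to 0.75, Mrpl13 -0.83 to 0.66, Mrps2 -0.68 to 0.56 and Mrps5 -0.35 to 0.16. The upper value of Mrpl57 and the lower value of Mrps5 are bounds too. Which transcript variants the probe sets read was not examined here. For 41 members the array has 1 probe set, and no such check exists for them. The other 33 have several, but only 24 of these had at least 2 measured ones. The rest had a single measured probe set and could not be checked either. They include Mrpl42, Mrpl21 and Mrps11, which are counted as 2-fold apart. The second probe set of each of these lay under the floor on both arrays.

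**Figure D3:**
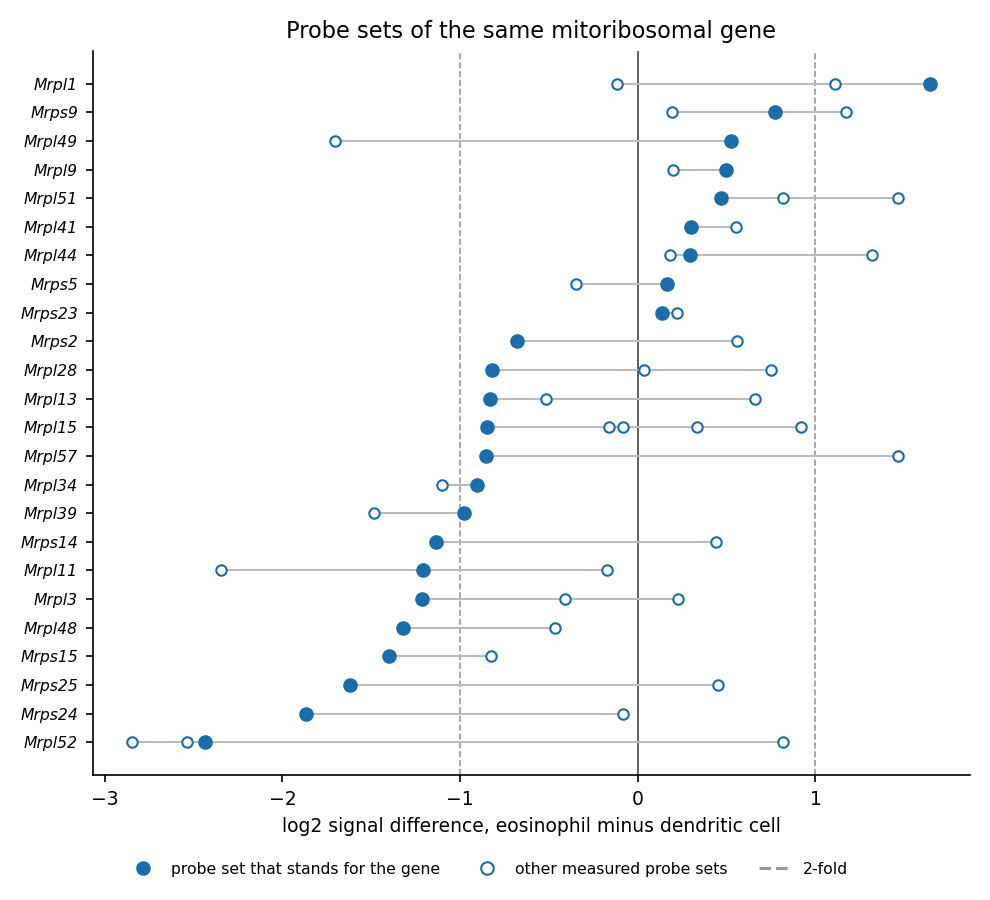
Log2 difference (eosinophil minus dendritic cell) of every measured probe set of the 24 members with at least 2; each row is a gene, the filled point is the probe set used for the gene, open points are its others, and dashed lines mark 2-fold. In 12 rows the probe sets lie on both sides of 0.

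Promoter sequence was examined because nuclear genes for mitochondrial proteins are known targets of NRF1, of ETS factors such as GABPA (also called NRF2) and of YY1. RefSeq windows of 250 bases before to 50 bases after the start were matched by gene for 65 of the 74 members (71 windows), on both strands. The NRF1 motif (GCGC, any base, TGCGC) was present in 16.9% of member windows, against 4.60% of all 32851 windows and 6.38% of those of protein-coding genes. The ETS motif CCGGAAG was present in 33.8%, against 8.86% and 11.6%. The YY1 motif AAGATGG was present in 16.9%, against 6.34% and 6.24%, and the E-box CACGTG in 9.86%, against 7.15% and 7.84%. These are counts of letters and not of bound sites, and no matches of different motifs overlapped in the member windows.

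At least 1 of the 4 motifs was found for 42 members and none for 23, and Mrpl17, Mrpl57, Mrps21 and Mrps26 had both NRF1 and ETS matches. In the sequences shown above, the NRF1 match lies at -87 to -78 relative to the start of Mrpl32, at -91 to -82 of Mrps21 and at -49 to -40 of Mrpl17. The ETS match lies at -237 to -231 of Mrpl17 and at -47 to -41 of Mrpl52, whose YY1 match lies at -91 to -85. Members with and without a match were found on both sides of the comparison. The 11 measured members with an NRF1 match had a median log2 difference of 0.29, with 3 at least 2-fold brighter in eosinophils against 1 in dendritic cells, whereas the 52 without had a median of -0.13 and counts of 8 and 14. For the ETS motif the medians were 0.02 with a match (23 members, 4 and 4) and -0.13 without (40 members, 7 and 11), and for the YY1 motif they were -0.21 with a match (12 members, 2 and 4) and 0.02 without (51 members, 9 and 11). Over all measured genes the 2-fold shares were 19.0% in eosinophils and 15.5% in dendritic cells. None of these splits was tested.

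Mitoribosomal genes often have a neighbour that starts close by on the opposite strand. Such a start within 1000 bases upstream was found for 22 of 65 members (33.8%), against 1483 of 17492 protein-coding genes (8.48%). Of these, 10 pairs had both genes measured, 5 of them on the same side, and in no pair were both genes 2-fold apart in the same direction. Divergent pairs of other genes were not counted in this way, so nothing is concluded from these counts. By any amount, 57.4% of all measured genes were brighter in eosinophils and 42.6% in dendritic cells. At 2-fold or more the shares were 19.0% and 15.5%. Mrps11 and Mrpl46, whose starts are separated by the 41 bases shown, lay on opposite sides (at least 2.09-fold brighter in eosinophils and 2.16-fold brighter in dendritic cells).

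Mrpl18 was 2.57-fold brighter in eosinophils, and its divergent neighbour Tcp1, a subunit of the cytosolic chaperonin, was 2.74-fold brighter in dendritic cells (2222 units in eosinophils against 6082 units in dendritic cells). Mrpl47 differed little (847 and 628 units), while its neighbour Ndufb5, a subunit of respiratory complex I, had 633 and 2120 units (3.35-fold). Mrpl41 was near equal and its neighbour Pnpla7, a lysophospholipase, had 2200 and 345 units (6.38-fold brighter in eosinophils). Mrpl32 and Psma2 were on the same side, but Psma2 had 3161 and 2250 units (1.40-fold).

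**Figure D4:**
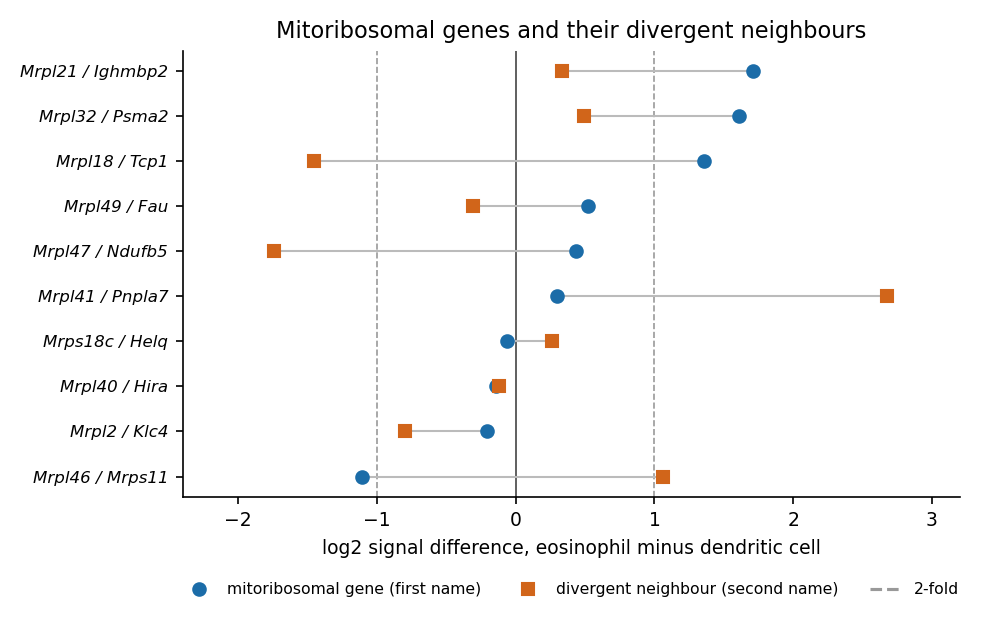
Log2 difference (eosinophil minus dendritic cell) of 10 mitoribosomal genes and of the genes that start upstream of them on the other strand; each row is a pair. Both genes of 5 pairs lie on the same side of 0 and those of 5 pairs on opposite sides.

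The genes that serve the mitochondrial ribosome without being among the 74 were also read from lists. Of 4 measured mitoribosomal proteins with other symbols (Dap3, Ptcd3, Chchd1 and Gadd45gip1), none was 2-fold apart and the median was 0.0016. Dap3, a GTP-binding protein of the small subunit, had 826 units in eosinophils against 690 units in dendritic cells. Of 6 measured translation factors (median -0.079), only Mtif2, the initiation factor, was 2-fold apart, with 282 and 133 units (at least 2.09-fold). The 3 factors above the floor on both arrays had a median of -0.38, and the other 3 were above it in eosinophils alone. Tufm, the elongation factor that brings transfer RNA, had 291 and 424 units (1.46-fold).

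Of 18 ribosome assembly and ribosomal RNA modification genes on the array, 9 were above the floor on both arrays, with a median of 0.41. By some amount, 8 of these were brighter in eosinophils, against 54.9% of all genes above the floor on both arrays. A further 5 were above it in eosinophils alone and 1 in dendritic cells alone, and the 3 not measured (Mtg1, Mrm2 and Mrm3) had the lower signal in eosinophils. Of the 15 measured, 3 (20%) reached 2-fold in eosinophils against 1 (6.67%) in dendritic cells, where all measured genes gave 19.0% and 15.5%. Nsun4, a methyltransferase of the small subunit RNA, had 399 units in eosinophils against 171 units in dendritic cells (2.34-fold). Eral1, a chaperone of that RNA, had 580 and 272 units (2.14-fold). Ngrn had 312 and 81.7 units (at least 2.32-fold). Dhx30, an RNA helicase of mitochondrial RNA granules, had 1124 and 2691 units (2.39-fold brighter in dendritic cells).

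Genes for mitochondrial DNA upkeep and transcription had a median of 0.30 over 11 measured. The 8 of them above the floor on both arrays had a median of 0.056, with 4 brighter on each side. At 2-fold or more, 1 of the 11 was brighter in eosinophils (9.09%) against 2 in dendritic cells (18.2%). Over all measured genes the shares were 19.0% and 15.5%. Polg, the mitochondrial DNA polymerase, had 865 units in eosinophils against 130 units in dendritic cells (at least 6.42-fold). Elac2, which trims mitochondrial transfer RNA, had 270 and 1423 units (5.28-fold brighter in dendritic cells). Slirp, which protects mitochondrial messenger RNA, had 1500 and 3023 units (2.01-fold). Tfam, which packages and transcribes mitochondrial DNA, had 341 and 185 units (1.84-fold brighter in eosinophils).

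The list of mitochondrial aminoacyl-tRNA synthetases, which charge transfer RNA, also takes in other genes of that step such as Gatc. Of its 11 genes on the array, 6 were measured (median 0.32) and 5 were under the floor on both arrays. With those 5 counted at 0 the median was 0. Only Ears2 was 2-fold apart, with 61.2 units in eosinophils against 346 units in dendritic cells (at least 2.57-fold). Of 4 measured genes for inserting new proteins into the inner membrane (median -0.62), only Oxa1l was, with 264 and 587 units (2.23-fold).

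The nuclear genes of the respiratory chain and ATP synthase and those of cytosolic ribosomal proteins lay further toward dendritic cells than the mitoribosomal genes did. The 76 measured respiratory chain and ATP synthase subunits had a median of -0.68, with 5 at least 2-fold on the eosinophil side against 35 in dendritic cells. The 41 measured cytosolic ribosomal proteins, a list that takes in related genes such as Rpl7l1, Rpl22l1 and Rps27l, had a median of -1.49 and counts of 0 and 28. As shares these are 6.58% and 46.1% of the respiratory list and 0% and 68.3% of the cytosolic one, against 19.0% and 15.5% of all measured genes. Neither difference from the mitoribosomal genes was tested, since there are no replicates.

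**Figure D5:**
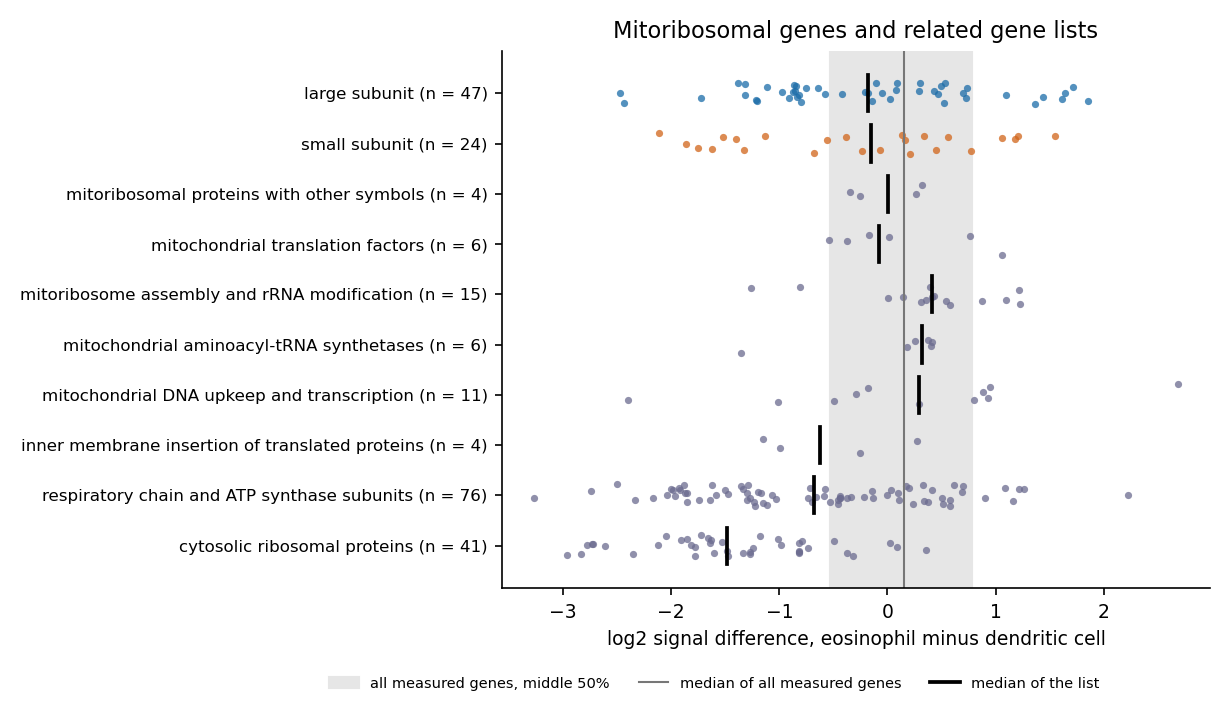
Log2 difference (eosinophil minus dendritic cell) of the measured genes of both subunits and of related lists; points are genes, black bars are list medians, and the grey band and line are the middle 50% and the median of all measured genes. Medians run from 0.41 for the assembly genes over -0.18 and -0.15 for the large and small subunit to -0.68 for the respiratory subunits and -1.49 for the cytosolic ribosomal proteins.

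The labelled cell types were checked against markers. Of 8 eosinophil markers on the array 6 were measured, all of them brighter in eosinophils by 2-fold or more, with summed signals of 34866 units in eosinophils against 670 units in dendritic cells over the 8. Siglecf had 6977 and 112 units, and the granule genes Prg2 and Prg3 were under the floor on both arrays. All 10 dendritic cell markers were brighter in dendritic cells, 8 of them by 2-fold or more (not Itgax and Zbtb46), with summed signals of 6784 units in eosinophils against 212727 units in dendritic cells. The summed signals of 5 proliferation genes were 980 units in eosinophils against 4629 units in dendritic cells, and all 5 were brighter in dendritic cells. The difference was 2-fold or more for Rrm2 (360 and 2715 units), Top2a and Birc5, but 1.24-fold for Mki67 (474 and 587 units) and 1.62-fold for Cdk1. Their part in the members' differences was not tested.

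Of the other cell types, markers above the floor on at least 1 array numbered 0 of 4 for B and plasma cells, 1 of 3 for T cells (Cd3e, 336 units in eosinophils against 557 units in dendritic cells), 3 of 5 for epithelium, 1 of 4 for neutrophils, 1 of 5 for mast cells, 3 of 6 for macrophages and 0 of 2 for erythroid cells. The summed signals of these 7 lists lay between 27.0 and 698 units in eosinophils and between 42.8 and 798 units in dendritic cells. Control ratios and scaling also differed between the arrays. The ratio of 3′ to 5′ signal was 6.38 in eosinophils and 9.0 in dendritic cells for beta-actin, and 9.81 and 6.58 for Gapdh. The 2 controls thus differed in opposite directions, and on both arrays the 3′ signal was several-fold the 5′ signal. The median of the 18 hybridisation spike probe sets was 2.06-fold brighter on the eosinophil array. The part of these in the members' differences was not tested.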

How the data were processed

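Signal intensities of 1 array per population were used as the authors deposited them, on a linear scale, and the submitters' processing notes name MAS5 5.0. The trimmed mean of the deposited intensities was 500.2 for eosinophils and 500.3 for dendritic cells, with medians of 148.1 and 122.0 units and 52.8% and 47.2% of probe sets above the floor. Detection calls and scanner files were not used here, so the floor stands in for background.

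Of 22690 probe sets (64 array controls), 20393 had 1 gene, 691 had several and 1606 were not listed in the platform annotation. For 20364 of them the symbol was brought up to date by Entrez identifier with RefSeq of GRCm38.p6. Values were computed with Python 3.11.15, pandas 2.3.3 and statsmodels 0.14.6, and checked on simulated data. Members named in full were those at least 2-fold apart, the 5 with the highest signal on each array, those whose probe sets disagree in direction by over 1 log2 unit and those near 2-fold, and of other lists up to 3 genes in each direction. The divergent neighbours and the promoters shown were chosen after values were seen. The members and lists were chosen with earlier results of these data known. Alternatives were other scalings, floors, probe set rules and a 4-fold mark.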

Additional observations from a re-analysis of the deposited data

How the results depend on the processing

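The number of arrays limits every value, and no error over animals or preparations exists. No paired analysis was possible because each population has 1 array and no result comes from a test. The median log2 difference of the members stayed below 0 under all 10 alternatives, between -0.048 (mean of all probe sets of a gene) and -1.22 (centring on the spike controls). Minus the median of all genes it was -0.20 to -0.59. The spike controls shift all genes, whose median becomes -0.63, and with them 6.00% of all genes are 2-fold brighter in eosinophils against 36.9% in dendritic cells. The members' counts at 2-fold became 7 in eosinophils and 28 in dendritic cells with arrays centred on their median, 0 and 41 with the spike controls, and 0 and 3 at the 4-fold mark. Of the 29 members counted at 2-fold, 25 remained so with median centring, 27 with quantile normalization, 26 with loess and 18 with the spike controls. With the mean of all probe sets the difference turned for Mrpl11 (0.077), Mrps14 (0.20), Mrps25 (0.00075), Mrpl28 (0.55), Mrpl57 (0.51), Mrpl41 (-0.45) and Mrpl49 (-0.59). That alternative averages log2 signals before the floor is applied, so probe sets under the floor on both arrays enter it too, as for Mrpl11 and Mrpl41. It gave a value for 27 of the 29 members, not for Mrpl42 and Mrps11, and 20 remained 2-fold apart. Mrpl21 fell from 1.71 to 0.30 under it. Another alternative used only probe sets without a mark for sequence shared between transcripts. It gave a value for 22 of the 29 members, and 20 remained 2-fold apart. Mrpl11 moved from -1.21 to -0.17 there. With a floor of 200 units the counts were 9 and 17, and members above the floor on both arrays numbered 57.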

Other observations

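Another 3 probe sets carry a mitoribosomal symbol together with that of another gene, so their signal cannot be assigned and they were left out of the counts. The probe set for Mrpl30 and Gm6238 had 857 units in eosinophils against 2388 units in dendritic cells. The probe set for Mrps34 and Nme3 had 11.7 and 67.2 units, under the floor on both arrays. The separate Mrps34 probe set was also under the floor in eosinophils, but had 453 units in dendritic cells. The probe set for Mrpl53 and Ccdc142 had 148 and 131 units.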
